A study of Mus musculus with 4 samples.

Results

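Genes that give myeloid cells their identity were examined for trimethylation of lysine 9 on histone H3 (H3K9me3) in CD8+ T cells. The set holds 10 genes of 21774 protein-coding genes on the nuclear chromosomes, chosen by name with earlier results of these data known. They are the transcription factors Spi1 and Cebpa, the growth factor receptor Csf1r, the integrin chains Itgam and Itgax, the surface receptors Cd14, Adgre1 and Gpr141, and the effector genes Lyz2 and Mpo. H3K9me3 was mapped by chromatin immunoprecipitation and sequencing (ChIP-seq) in C57BL/6 CD8+ T cells after 3 days of culture with interleukin-2 and antibodies against CD3 and CD28. The wild-type (WT) group had 1 H3K9me3 library, and so did the group lacking Suv39h1 (knockout, KO), which encodes a methyltransferase that writes this mark. The 2 input libraries are not analysed here. The labels do not say how many animals gave each library, how old they were, or how Suv39h1 was removed.

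H3K9me3 is bound by heterochromatin proteins of the HP1 family and marks stretches of closed, silent chromatin, often repeats and gene clusters. Enzymes of the SUV39H, SETDB1 and G9a families write methyl groups on this residue. In blood cells, genes of other lineages can be shut by this mark, by Polycomb marks, by DNA methylation, or simply by the lack of their activators. Itgam and Itgax can also be expressed by activated CD8+ T cells. The factor PU.1, the product of Spi1, and C/EBPα, the product of Cebpa, are the main activators of the myeloid programme.

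The authors' list of H3K9me3 islands, meaning stretches with more ChIP reads than expected by the caller SICER, held 12371 islands with 5547695 reads in WT and 25424 islands with 10020253 reads in KO. Depth of the whole libraries is not known here, and there are no replicates. All differences below are therefore between these 2 libraries and carry no test. A gene without an island in a list had no called island, which does not show that the mark is absent. Islands are a measure of chromatin and not of RNA, so neither the cell type nor the loss of Suv39h1 could be checked on expression. Of 11 CD8 T cell marker genes found in the annotation, none had an island over the gene in either library, where 14.0% of all genes had one in WT and 13.7% in KO. Within 100 kb, 3 had a WT island and 0 a KO island, beside 48.9% and 40.4% of all genes. Of 11 B cell and erythroid marker genes, 3 had a WT island and 1 a KO island over the gene with 2 kb on each side. The marker genes are few and some, such as Cd3d, Cd3e and Cd3g, are neighbours, so these counts do not check the cell type.

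Islands lay over the surface receptor genes Adgre1 and Gpr141. These are the 2 longest of the 10 genes, at 125 kb and 74.7 kb. The backgrounds given here are not matched for gene length, and its part in the members' values was not tested. Adgre1, which encodes the macrophage antigen F4/80, carried islands in both libraries, at different places in the gene. Gpr141, an orphan G protein-coupled receptor gene, carried 3 islands in WT and none in KO. Each of the other 8 genes was free of islands over the gene and 2 kb on each side in both libraries, as were 79.9% of all protein-coding genes.

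Counted by gene, these numbers lay near those for all genes. Within 100 kb of the gene, 5 of the 10 members had a WT island, against 48.9% of all protein-coding genes. The KO library had an island within 100 kb of 3 members, against 40.4% of all genes. All 3 also had a WT island there (background for both, 32.3%), while Cd14 and Cebpa had one in WT alone (background 16.6%) and no member had one in KO alone (background 8.08%). The other 5 members, Csf1r, Itgam, Itgax, Mpo and Spi1, had none in either library, against 43.0% of all genes. Over the gene with 2 kb on each side, WT islands met 2 members and KO islands met 1, against 14.0% and 13.7% of all genes. The remaining 8 had none in either library (background 79.9%). These shares lie near the background and are no result about the myeloid list.

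By length, WT islands covered more than KO islands around 5 members and KO islands covered more around none, where 33.6% of all genes had more WT and 22.8% more KO cover. Itgam and Itgax are neighbours with a shared stretch, so the 10 genes with 100 kb on each side form 9 separate windows of 2166 kb in all. Islands covered 158 kb of them in WT (7.29%) and 76 kb in KO (3.51%). The windows of all protein-coding genes had a mean cover of 4.42% in WT and 4.69% in KO, and a median of 0% in both. These are not like measures. The mean weights each gene alike, while the members' percentages pool length, so their long windows weigh more. Adgre1 and Gpr141 alone held 130 kb of the WT cover and 67.5 kb of the KO cover. In the windows of the other 8 genes, cover was 1.79% in WT and 0.543% in KO.

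**Figure D1:**
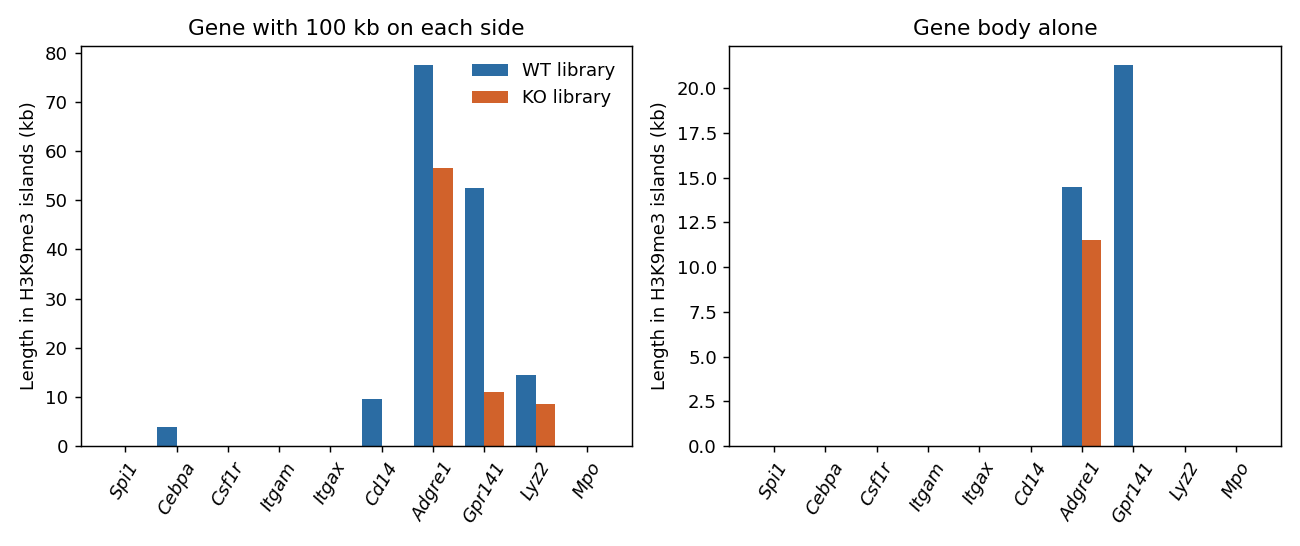
Length in H3K9me3 islands (kb) for each of the 10 myeloid genes, with 100 kb on each side (left) and over the gene body alone (right), as bars for the WT and the KO library, 1 library each. Adgre1 has bars for both libraries on either side, Gpr141 has 52.5 kb (WT) and 11 kb (KO) on the left and a WT bar alone on the right, and 5 genes have no bar.

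Neither of the master regulators had an island over the gene. Spi1 (chr2:91082374-91115759, mm10) had its nearest WT island 191 kb away and its nearest KO island 776 kb away. 10 other protein-coding genes lie within 100 kb of it, among them Nr1h3, which encodes the oxysterol receptor LXRα. Cebpa (chr7:35119293-35121928) had 1 WT island within 100 kb, 59.1 kb towards higher coordinates at chr7:35181001-35185000, over the end of the long noncoding RNA gene Gm38988. It was short, at 4 kb with 206 reads, but dense. Its 51.5 reads per kb lay at percentile 96.7 of the WT list. The nearest KO island to that WT island was 589.5 kb away, and the nearest to Cebpa itself was 528 kb away.

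Csf1r, the receptor for macrophage colony-stimulating factor (chr18:61105572-61131139), lay farthest from WT islands of the 10 genes. Its nearest island was 465 kb away in WT and 463 kb away in KO, and 8 other coding genes share its window. Itgam (chr7:128062640-128118491) encodes CD11b and Itgax (chr7:128129526-128150657) CD11c, the alpha chains that pair with the integrin chain encoded by Itgb2. The nearest WT islands were 217 kb and 184 kb away and the nearest KO islands 695 kb and 662 kb away. Itgad, the next integrin gene in the same row, had no island within 100 kb in either library.

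Cd14, the co-receptor for bacterial lipopolysaccharide (chr18:36725064-36726815), sits among 14 other protein-coding genes within 100 kb, the most of any member. A single WT island lay in its window, 81.2 kb towards higher coordinates (chr18:36808001-36817500). It was 9.50 kb long with 385 reads, or 40.5 per kb, close to the WT median of 40.4, and it overlapped no annotated gene. No KO island overlapped it. The nearest KO island was 22.5 kb from it, outside the window and 113 kb from Cd14.

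Adgre1 (chr17:57358581-57483529), the longest member at 125 kb, had 7 WT and 7 KO islands in its window. Inside the gene the islands of the 2 libraries did not meet. The first WT island, chr17:57414501-57422000, was 7.50 kb long with 346 reads (46.1 per kb) and covered the pseudogene Gm18069, which lies within Adgre1. The next WT island, chr17:57476501-57489500, was 13 kb long with 531 reads (40.8 per kb) and ran across the higher-coordinate end of the gene, with 7.03 kb of it inside. The KO islands lay between them, at chr17:57453501-57460500 (7 kb, 313 reads, 44.7 per kb) and chr17:57466001-57470500 (4.50 kb, 202 reads, 44.9 per kb). The gap between the nearest WT and KO islands inside the gene was 6 kb. In all, 14.5 kb of the gene body was covered in WT (11.6%) and 11.5 kb in KO (9.20%), with no base in both.

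The pattern changed beyond the end of Adgre1, where every island of either library within 100 kb met an island of the other. These 5 WT and 5 KO islands lie over and past Vmn2r120, a gene of the vomeronasal type 2 receptor family (chr17:57508783-57545314). Vmn2r120 was covered over 25.5 kb by WT islands (69.9%) and 24.2 kb by KO islands (66.3%).

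The nearest overlapping pair to Adgre1 was closely matched, with a WT island at chr17:57500001-57511000 (470 reads, 42.7 per kb) and a KO island at chr17:57499501-57509500 (387 reads, 38.7 per kb) sharing 9.50 kb. Next came chr17:57513001-57521000 in WT (343 reads, 42.9 per kb) and chr17:57511501-57516000 in KO (204 reads, 45.3 per kb), which shared 3 kb. A WT island of 12 kb, chr17:57526501-57538500 (501 reads, 41.8 per kb), lay wholly within a KO island of 19 kb, chr17:57521501-57540500 (739 reads, 38.9 per kb). The KO island was the longest KO island near any member. Past it the order turned, and a WT island of 19.5 kb, chr17:57542001-57561500 (808 reads, 41.4 per kb), wholly contained a KO island of 5.50 kb, chr17:57547501-57553000 (228 reads, 41.5 per kb). That WT island, the longest near any member, covered the whole 300-base RefSeq promoter window of Vmn2r120, and the KO island began 2.19 kb from the start of that gene. The last pair, chr17:57574501-57581000 in WT (294 reads, 45.2 per kb) and chr17:57577501-57584500 in KO (318 reads, 45.4 per kb), shared 3.50 kb and overlapped no annotated gene.

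No island of either library lay in the window on the lower-coordinate side of Adgre1, towards Vav1 and Trip10. Over the whole window WT cover was 77.5 kb and KO cover 56.5 kb, of which 33.5 kb was shared. The WT excess of 21 kb was met or passed by 7.10% of all genes. It fell to 8.50 kb with 50 kb on each side and turned to 18.5 kb more in KO with 200 kb on each side. It was 50 kb when each list was limited to its denser islands (more reads per kb than its median), and 48.5 kb with a KO list reduced to the size of the WT list by keeping the islands with most reads, which removes all KO islands from the gene itself.

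Gpr141 (chr13:19749680-19824336, on the minus strand in the RefSeq promoter table) showed the largest difference in covered length of the 10 genes when all islands within 100 kb were counted, though not among the denser islands, where Adgre1 did. Its window held 6 WT islands over 52.5 kb and 2 KO islands over 11 kb, with 5 kb shared. In the gene body, WT islands covered 21.3 kb (28.6%) and KO islands none. The first of them, chr13:19746001-19756500 (10.5 kb, 411 reads, 39.1 per kb), spans the 3′ end of the gene, with 6.82 kb inside it. The next, chr13:19800001-19809000 (9 kb, 364 reads, 40.4 per kb), lies in the body. The last, chr13:19818001-19823500 (5.50 kb, 248 reads, 45.1 per kb), covers the pseudogene Gm19154. It stops 756 bases short of the start of Gpr141 in the RefSeq promoter table (chr13:19824257), which lies inside the gene coordinates given above.

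The WT islands went on beyond the 3′ end of Gpr141. The neighbouring gene Gpr141b (chr13:19727417-19732955) lay whole inside a 12 kb WT island, chr13:19727001-19739000 (464 reads, 38.7 per kb), and had its nearest KO island 79.9 kb away. Farther on, a 6 kb WT island, chr13:19657501-19663500 (273 reads, 45.5 per kb), lay in Nme8, which encodes a thioredoxin domain protein of cilia and sperm. No KO island overlapped any of these 5 WT islands. On the 5′ side of Gpr141 a KO island without a WT partner lay 22.7 kb away (chr13:19847001-19853000, 6 kb, 279 reads, 46.5 per kb). The remaining WT island, chr13:19867001-19876500 (9.50 kb, 377 reads, 39.7 per kb), wholly contained a KO island of 5 kb, chr13:19868501-19873500 (216 reads, 43.2 per kb). It was the single place near Gpr141 where the libraries met.

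The WT excess in the Gpr141 window, 41.5 kb, was met or passed by 257 of 21774 genes (1.18%). Gpr141 has the largest such excess of 10 members that were chosen with earlier results of these data known. This share, like that for Adgre1, therefore only describes the gene. The WT excess around Gpr141 depended on the setting. It was 9.50 kb among the denser islands of each list, since 3 of the 6 WT islands lay under that median, and 63.5 kb with 200 kb on each side. Of 5 genes in the region of Gpr141 that were looked up by name, only Gpr141b and Nme8 lie within 100 kb of it. Epdr1 (15.5 kb), Gpr141b (7.96 kb) and Elmo1 (7.50 kb) had cover over the gene with 2 kb on each side in WT alone (background 6.39%). Nme8 had 6 kb (WT) and 4.42 kb (KO) that did not overlap, and Sfrp4 had none in either. Genes of 1 region are not separate observations. Epdr1 encodes an ependymin-related protein, Elmo1 a regulator of engulfment and cell migration, and Sfrp4 a secreted inhibitor of Wnt signalling.

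**Figure D2:**
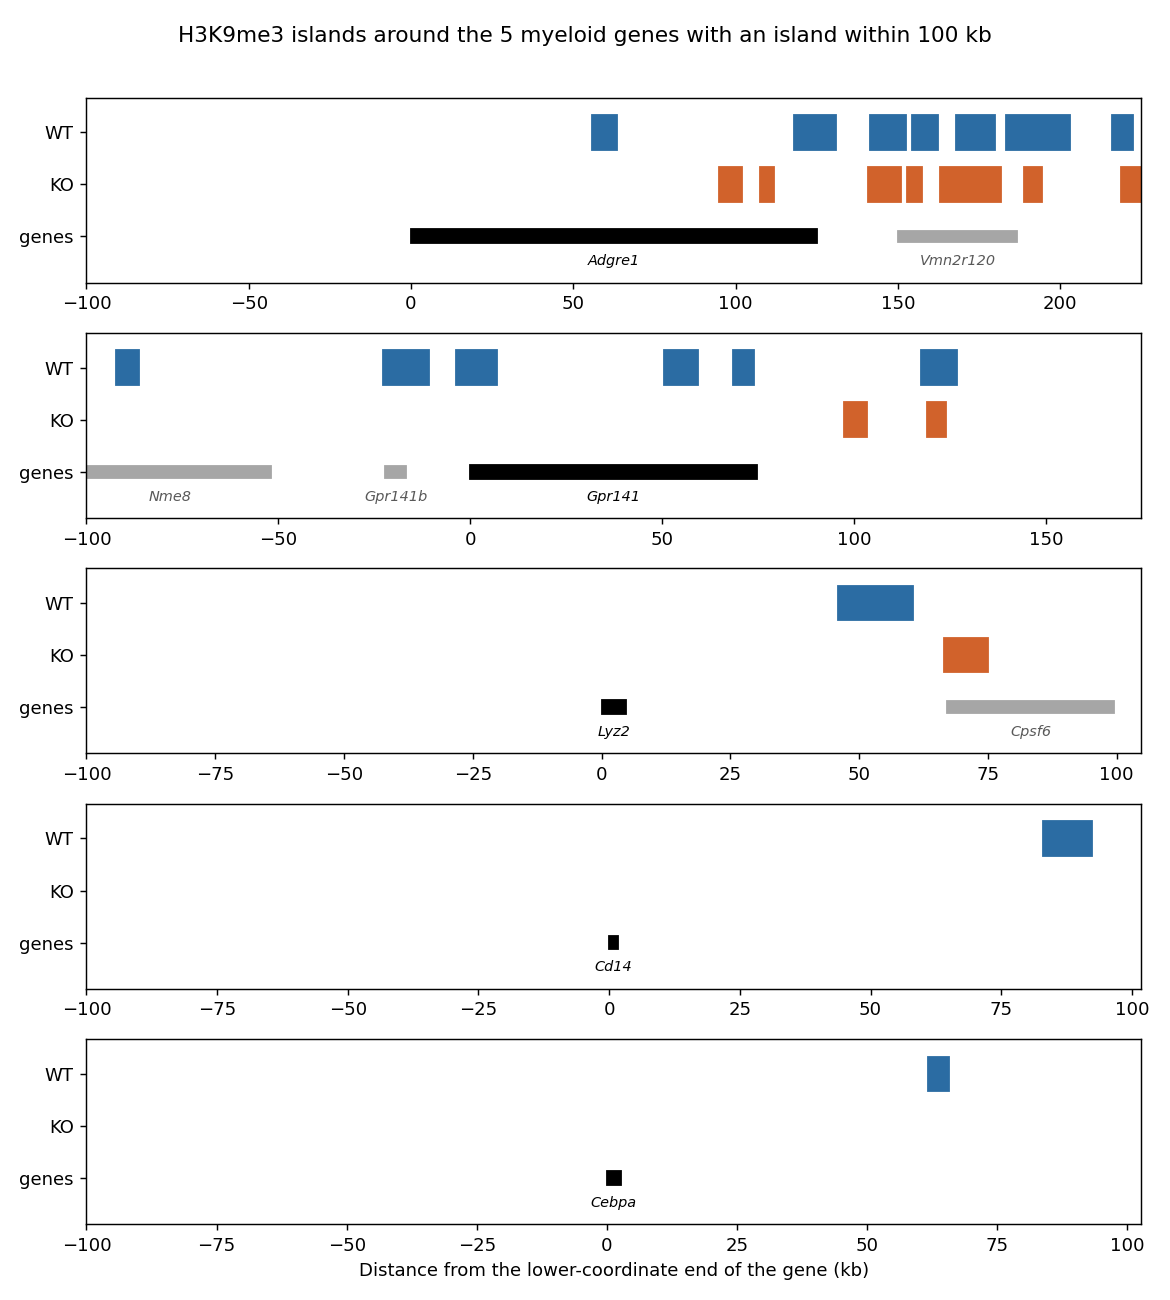
Islands of the WT library (blue) and the KO library (orange) around the 5 genes with an island within 100 kb, against distance in kb from the lower-coordinate end of each gene (black bar). Grey bars are the protein-coding genes that lie under these islands, and other genes of the windows are not drawn. Inside Adgre1 the KO islands lie between the WT islands without overlap, beyond it islands of the 2 libraries overlap, and Gpr141 carries WT islands alone.

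The sequences before the starts of Gpr141 and Gpr141b are shown because a WT island ends near the first and covers the second, with those of Cebpa and Lyz2 as genes whose starts lie at least 41.2 kb from any island. Each is the stretch of 250 bases before the start in the RefSeq promoter table (GRCm38.p6). For Gpr141 and Gpr141b that start lies inside the gene coordinates given above, and so does part of the stretch. All are read 5′ to 3′ on the strand of the gene, with CG dinucleotides in capitals.
Gpr141: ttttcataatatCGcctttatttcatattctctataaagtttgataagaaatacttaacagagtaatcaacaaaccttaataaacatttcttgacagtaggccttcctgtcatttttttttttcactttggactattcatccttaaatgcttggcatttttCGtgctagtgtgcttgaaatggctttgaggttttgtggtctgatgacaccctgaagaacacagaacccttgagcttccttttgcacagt
Gpr141b: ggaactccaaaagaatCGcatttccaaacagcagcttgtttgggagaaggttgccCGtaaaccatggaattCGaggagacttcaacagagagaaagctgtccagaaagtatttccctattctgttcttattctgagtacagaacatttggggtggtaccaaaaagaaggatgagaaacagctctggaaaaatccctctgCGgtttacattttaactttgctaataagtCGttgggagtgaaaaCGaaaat
Cebpa: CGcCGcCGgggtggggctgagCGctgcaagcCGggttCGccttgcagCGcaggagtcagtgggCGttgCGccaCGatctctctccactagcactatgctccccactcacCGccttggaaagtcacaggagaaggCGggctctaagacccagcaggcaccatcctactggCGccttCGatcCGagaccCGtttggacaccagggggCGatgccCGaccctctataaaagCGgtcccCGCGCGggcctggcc
Lyz2: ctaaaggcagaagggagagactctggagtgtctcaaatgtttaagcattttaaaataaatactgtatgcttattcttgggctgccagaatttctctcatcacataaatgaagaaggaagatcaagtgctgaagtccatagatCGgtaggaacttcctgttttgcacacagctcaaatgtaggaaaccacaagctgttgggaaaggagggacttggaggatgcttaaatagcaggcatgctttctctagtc
The Gpr141 stretch (chr13:19824258-19824507, minus strand) holds 2 CG dinucleotides and 34.8% G and C, and no island covers it in either library. That of Gpr141b (chr13:19732952-19733201, minus strand) holds 6 and 41.2%, and lies wholly inside the WT island. The Cebpa stretch (chr7:35119043-35119292, plus strand) holds 22 and 66.4%, and its start is 61.7 kb from the nearest WT island. The Lyz2 stretch (chr10:117282273-117282522, minus strand) holds 1 and 41.6%. Over 32851 such stretches in the table, 92.1% hold at least 1 CG, with a median of 6 and a median of 52.4% G and C. The dinucleotide reads the same on both strands. Of the members, 6 of 10 have an entry in the table, too few for a statement on the list as a whole, and none of the 6 promoter windows touches an island. Over all promoter windows of the table, 3.00% touch a WT island and 3.67% a KO island.

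Of the effector genes, Lyz2 (chr10:117277541-117282272), which encodes the lysozyme of macrophages and neutrophils, had 1 island of each library in its window, on the same side and without overlap. The WT island lay 41.2 kb away at chr10:117323501-117338000. It was 14.5 kb long with 561 reads (38.7 per kb) and overlapped no annotated gene. The KO island lay 61.7 kb away at chr10:117344001-117352500, was 8.50 kb long with 377 reads (44.4 per kb), and ran into Cpsf6, which encodes a subunit of a factor that processes the 3′ ends of messenger RNA. The islands were 6 kb apart. The neighbouring lysozyme gene Lyz1 was free of islands as well, with these same islands in its window. WT cover exceeded KO cover by 6 kb around Lyz2, but among the denser islands the WT island dropped out and KO cover was 8.50 kb higher.

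Mpo (chr11:87793784-87804412), which encodes the myeloperoxidase of neutrophil granules, was 136 kb from the nearest WT island and 1388 kb from the nearest KO island, the longest distance of any member. Its relatives Lpo and Epx, peroxidase genes in the same row, had no island over the gene either. A 6 kb WT stretch lay within 100 kb of Epx, 65 kb away, and Lpo had none within 100 kb in either library.

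**Figure D3:**
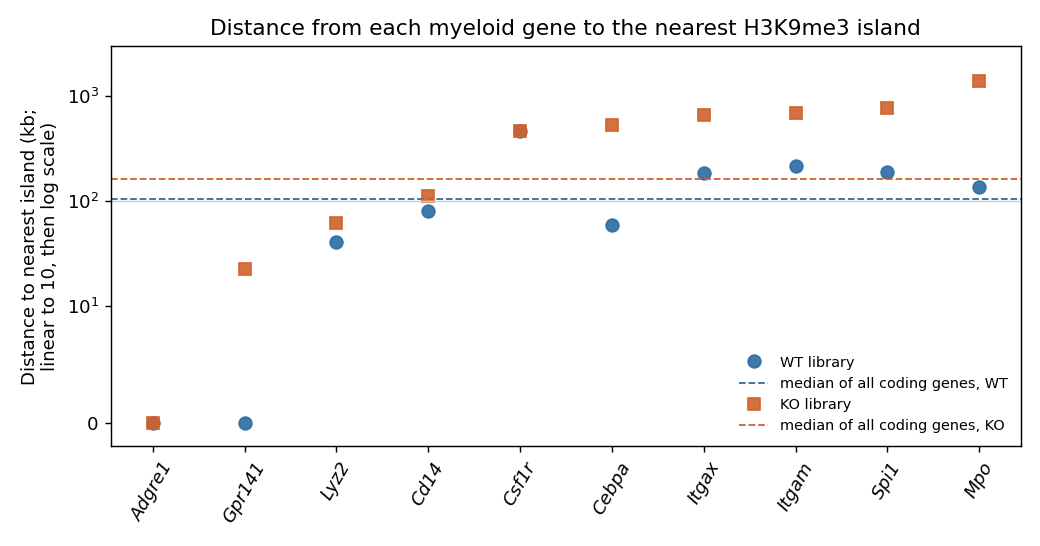
Distance in kb from each myeloid gene to the nearest island of the WT library (circles) and the KO library (squares), on an axis that is linear to 10 kb and logarithmic above, where 0 means an island over the gene. Dashed lines are the medians over all protein-coding genes, 105 kb (WT) and 162 kb (KO), the grey line is at 100 kb, and the KO island is the farther one for all genes but Adgre1 and Csf1r.

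The nearest KO island was thus farther away than the nearest WT island for 8 of the 10 genes, although the KO list held more islands. The same order held for 55% of all protein-coding genes. Over all protein-coding genes the median distance was 105 kb (WT) and 162 kb (KO), and over the members 109 kb and 496 kb. Itgam and Itgax share their nearest islands and are not separate observations.

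The share of genes with an island differed with the number of neighbouring genes. Adgre1 and Gpr141, both with islands in both libraries, have 3 and 2 other protein-coding genes within 100 kb. Among all 5578 genes with 2 or 3 such neighbours, 57.0% had a WT island within 100 kb and 46.5% a KO island. Cd14, Csf1r, Mpo and Spi1 have 8 or more, and there 39.2% of 5157 genes had a WT island and 29.4% a KO island, with 1 and 0 of these 4 members. The 4 members with 4 to 7 neighbours, Cebpa, Itgam, Itgax and Lyz2, had an island in 2 cases in WT and 1 in KO, against 47.4% and 36.8% of 7826 genes. No member has 0 or 1 neighbours, and there 54.0% of 3213 genes had a WT island and 56.1% a KO island, so the WT share did not fall steadily and the order of the libraries turned. The part of gene density in the members' values was not tested.

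Islands near the members were mostly denser than the median of their lists. The 16 WT islands had 38.7 to 51.5 reads per kb with a median of 41.6, beside a median of 40.4 over the WT list. The 10 KO islands had 38.7 to 46.5 with a median of 44.5, beside 40.1 over the KO list. Lengths ran from 4 to 19.5 kb in WT and from 4.50 to 19 kb in KO. Median lengths were 9.50 kb (WT) and 6.50 kb (KO), beside 10 kb and 9 kb over the lists, so the KO islands here were also shorter. Of these islands 12 in WT and 8 in KO were above the median density of their own list, and 7 of the 10 KO islands lay at density percentiles 79.1 to 92.4. All but the short WT island near Cebpa lay between the 5th and 95th percentiles of density. Counts are not scaled to depth, so densities of the 2 lists are not compared with each other. Density was not compared among islands of like length, so a higher density is not shown to be a trait of these places.

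**Figure D4:**
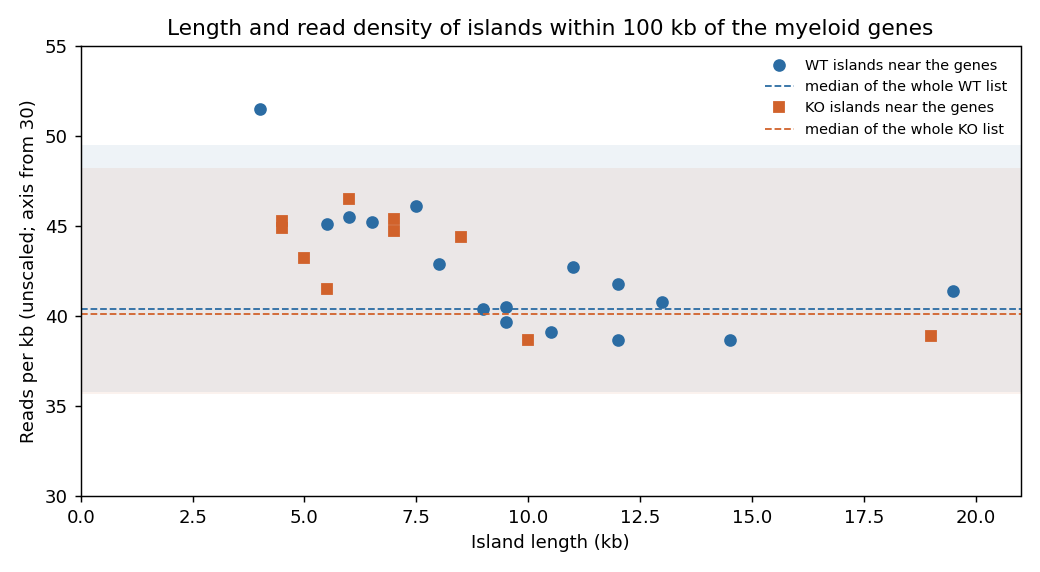
Length (kb) and reads per kb of the 16 WT islands (circles) and 10 KO islands (squares) within 100 kb of the myeloid genes, with the median of each whole list as a dashed line and its 5th to 95th percentile as a shaded band. The density axis starts at 30, and 1 WT island, that near Cebpa with 51.5 reads per kb, lies above the bands.

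Overlap between the libraries lay mostly past the end of Adgre1. Of the 16 WT islands 6 were overlapped by a KO island (37.5%, exact 95% binomial interval 15.2 to 64.6), against 48.0% over the WT list. Of the 10 KO islands 6 were overlapped by a WT island (60%, 26.2 to 87.8), against 24.9% over the KO list. The intervals cover counting of islands only, and neighbouring islands are not independent, since 5 of the 6 overlapped islands of either library lie in the row past Adgre1.

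Other myeloid genes, in 4 lists chosen by role, gave a like picture. Of 58 such genes, 7 had an island over the gene with 2 kb on each side in WT and 6 in KO. Islands of both libraries lay over 5, of WT alone over 2 and of KO alone over 1, beside 7.58%, 6.39% and 6.16% of all genes. Within 100 kb, 30 had a WT island and 19 a KO island, 14 of them in WT alone and 3 in KO alone, beside 48.9%, 40.4%, 16.6% and 8.08% of all genes.

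Lengths in this paragraph and the next are over the gene with 2 kb on each side, so part may lie outside the gene. Among 12 granule and antimicrobial genes, S100a9, a calcium-binding protein of neutrophils, was covered over 7.09 kb (WT) and 2.72 kb (KO) from overlapping islands. Ms4a3, a membrane protein gene of granulocyte and monocyte precursors, had 11.5 kb in WT alone, in an island at chr19:11630501-11642000 with 504 reads. Elane, Prtn3, Ngp, Ltf, Lcn2 and Prg2, or 6 of the 12, had no island within 100 kb in either library, beside 43.0% of all genes. Elane and Prtn3 are neighbours and not separate observations. A WT island lay within 100 kb of 6 of the 12 and a KO island of 4, beside 48.9% and 40.4% of all genes. Of 12 transcription factor genes, Zbtb46, a factor of classical dendritic cells, was covered over 13 kb (WT) and 5 kb (KO), where the KO island lay within the WT island. Cebpd, a relative of Cebpa, was touched by a KO island alone, over 0.215 kb of the 2 kb beside the gene.

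Of 7 growth factor receptor genes, Il3ra, the interleukin-3 receptor chain, with 2 kb on each side, was covered over 9.99 kb in WT and 5.99 kb in KO. Csf2ra, Csf2rb and Csf3r, the receptor chains for the other colony-stimulating factors, had none over the gene. Among 27 surface receptor genes, WT islands lay over 3 and KO islands over 2, beside 14.0% and 13.7% of all genes. Mrc1, the mannose receptor CD206, had 18 kb (WT) and 17 kb (KO). Msr1, a scavenger receptor of macrophages, had more in KO, with 23 kb against 13.5 kb. Mertk, a receptor for the uptake of dying cells, had 10.6 kb in WT alone, and its nearest KO island was 679 kb away.

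Adgre4, the relative of Adgre1 on the same chromosome, also carried islands of both libraries. WT islands covered 39.7 kb of this gene with 2 kb on each side and KO islands 32 kb. Inside Adgre1 no islands met, whereas all 3 KO islands over Adgre4 were overlapped by WT islands, over 7.50, 9.50 and 12 kb. A further WT island over Adgre4, chr17:55779001-55786500 (7.50 kb, 356 reads, 47.5 per kb), met no KO island. The other relative looked up, Adgre5 (CD97), had no island over the gene, with the nearest islands at 82.7 kb in WT and 85.7 kb in KO.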

How the data were processed

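Data were 1 H3K9me3 island list per genotype. Per the submitters' processing notes, the tools were Bowtie2 and SICER 1.1 and the build mm10. The sources used here do not give the window, gap, false discovery threshold, duplicate handling, treatment of reads that map to several places, or use of the input. The deposited lists hold a whole-number count per island without a header, read as the authors' count of ChIP reads and not scaled to depth or input, per its values. Starts and ends, counted from 0, were converted to positions counted from 1.

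Genes came from the RefSeq table of GRCm38.p6, the assembly mm10 names, without genes on scaffolds and mitochondrial genes. Exon annotation was not used here, nor was sequence beyond RefSeq promoters. A gene had an island when at least 1 bp of it, with 100 kb or 2 kb on each side, was covered, and islands overlapped when they shared at least 1 bp. Backgrounds are over all 21774 protein-coding genes, and exact (Clopper-Pearson) 95% intervals cover counting only. Interval code (Python 3.11.15, pandas 2.3.3, scipy 1.17.1) was tested on simulated intervals. With 1 library per genotype no test was made.

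The members and gene lists were chosen with earlier results of these data known. All 10 members are named, as are genes under islands within 100 kb of them and list genes with an island over the gene. Other genes named, all without an island over them, were chosen after their values were seen. Alternatives were other windows and flanks, stricter lists, overlap of at least 50% and merged islands. Autosomal backgrounds and grouping by gene density were added after the data were seen. Some of the genes looked up are not reported here.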

Additional observations from a re-analysis of the deposited data

How the results depend on the processing

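No paired analysis was possible because there is 1 library for each genotype. Members with a WT island numbered 5 within 100 kb, 3 within 50 kb and 8 within 200 kb. With the KO list reduced to the WT number of islands, which can only lower KO cover and counts of members, 0 members had a KO island over the gene, 12.5% of WT islands near members were overlapped, and KO cover of the windows was 1.73%. KO cover was 4.86% with 200 kb on each side. Among the denser islands of each list (reads per kb over its median), cover was 5.15% in WT and 2.17% in KO. The order of WT and KO cover reversed around Adgre1 with 200 kb on each side (WT minus KO -18.5 kb) and around Lyz2 among the denser islands (-8.50 kb). Of 44 recomputed summary values, 36 stayed within 1.5 times or their interval. For window cover, that interval counts stretches of 500 bp as independent, which those within 1 island are not. Window cover was higher in WT than in KO in every setting run, though the 2 kb limit and the reduced KO list could not turn this order. The 36 include values that could not change. A lower limit of 2 kb on island length removed no island near a member, the shortest being 4 kb (WT) and 4.50 kb (KO). Reducing the KO list cannot change WT cover or WT counts of members. The overlap intervals are wide, at 15.2 to 64.6% (WT) and 26.2 to 87.8% (KO), so staying within them says little. On autosomes alone the backgrounds within 100 kb were 51.8% in WT and 42.7% in KO, and over the gene 14.8% and 14.5%. Depth of the libraries, input signal and replicate spread are not known here, so a missing island limits no level of the mark.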

Other observations

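B cell genes were looked up beside the myeloid genes. Pax5, the factor that fixes B cell identity, had 8 kb in WT alone over the gene with 2 kb on each side, and Ebf1, an early B cell factor, had 10.5 kb (WT) and 6 kb (KO) that did not overlap. These values come from 1 library per genotype and no test was made.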
